A study of Mus musculus with 4 samples.

Results

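The comparison described here sets homozygous Tc/Tc mouse embryos against wild-type embryos at E8, gene by gene, across the whole transcriptome. Of 36808 genes in the deposited table, 17933 were listed at 0 in both libraries and 5328 more stayed under 1 FPKM in both. The remaining 13547 genes, with at least 1 FPKM in the Tc/Tc or the wild-type library, are the genes described. FPKM counts sequenced fragments per kilobase of a transcript, after scaling for the number mapped in the library. No measured difference between the genotypes entered this choice.

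Whole embryos were collected as Tc/Tc homozygotes and as wild types, and both genotypes came from the (C3H/HeH x 101/H)F1 background. The labels give E7.5 to 8.0 for the stage called E8 here. Where in that range each library lay is not given. A difference in embryo age, or in the tissue kept at dissection, cannot be told apart from genotype here. Total RNA was extracted with TRIzol LS, and directional libraries were made from it with ScriptSeq v2 reagents. There was 1 library for each genotype, so no value below carries an SD or a test, and every difference is between these 2 libraries. A later pair of libraries, labelled E10.0 to 10.5 and called E10, belongs to the same study. How many embryos a library was made from is not given here.

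The gene T, or Brachyury, encodes the founding T-box factor, which acts in the primitive streak, the notochord and the tail bud; Tc is 1 of its mutant alleles. During gastrulation, epiblast cells pass through the streak, lose their epithelial junctions and become mesoderm or endoderm, and T is needed for posterior mesoderm to form. The embryo at this stage also carries extraembryonic layers, the visceral endoderm of the yolk sac and the derivatives of the trophoblast, which take up, digest and pass on maternal nutrients before a placenta works.

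Relative levels were expressed as the log2 of (Tc/Tc FPKM + 1) over (wild-type FPKM + 1), called the log2 ratio below; adding 1 understates the ratio of low genes. A gene was called higher in Tc/Tc at a log2 ratio of 1 or more and lower at -1 or less. By that size rule 571 genes were higher (4.21% of the 13547), 407 were lower (3%), and 12569 were within the rule. Together 7.22% passed it in either direction. List counts below are to be read beside these shares. With both libraries scaled to equal total FPKM, the counts were 385 higher and 572 lower. As deposited, the median of all ratios was 0.055 and its quartiles were -0.17 and 0.30. Ratios of 2 or more were reached by 83 genes and ratios of -2 or less by 71. Wild type was listed at 0 for 60 of the higher genes, and Tc/Tc was listed at 0 for 68 of the lower genes.

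**Figure D1:**
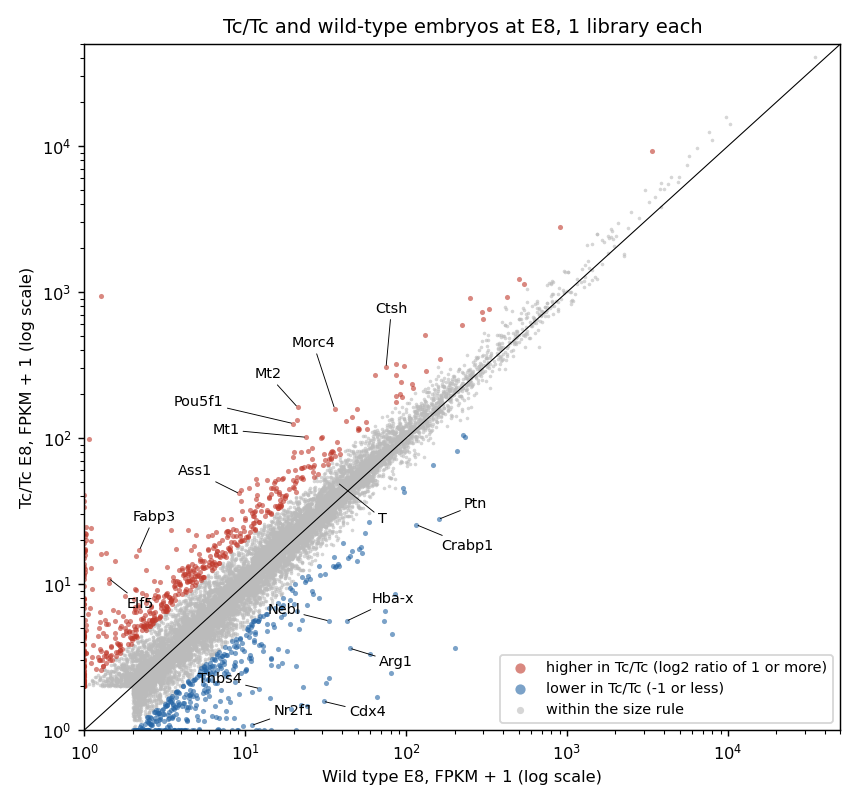
Each point is 1 of the 13547 genes, with wild-type FPKM + 1 on the x axis and Tc/Tc FPKM + 1 on the y axis, both on log scales; red points are higher in Tc/Tc, blue points lower, grey points within the size rule, and the line marks equal values. Most genes lie along the line, Mt2, Pou5f1 and Morc4 stand above it at over 100 FPKM in Tc/Tc, and Arg1, Cdx4 and Ptn stand below it.

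Each E8 library was also quantified a further time by the authors, in tables that compare stages (the stage tables), which gives a second value from the same reads. A gene listed at 0 in only 1 of the 2 estimates of a library was treated as having no second value. Such genes are left out of the shares that follow. Of the 552 higher genes with a second value, 378 (68.5%) were higher again, and of the 399 lower genes 380 (95.2%) were lower again. No gene with a second value passed the rule in opposite directions in the 2 estimates. For genes that reached 1 FPKM in each estimate, the log2 values of the 2 estimates differed with an SD of 0.174 in the Tc/Tc library (12638 genes) and 0.061 in the wild-type library (12935 genes). This spread covers re-estimation of 1 set of reads, not embryos or library preparation. Where the call of a gene named with its values did not hold in the stage tables, their ratio is given below. The Tc/Tc stage table is headed in part against its title: its Tc/Tc E8 column stands beside a column headed as wild type E10, where the title names Tc/Tc E10. The Tc/Tc values of the second estimate rest on that table.

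The genes at the edges of the level and size limits show how fine they are. Zmynd17 entered with 0.961 FPKM in Tc/Tc against 1.0002 in wild type, whereas Cntf, at 0.999 FPKM in Tc/Tc against 0.836 in wild type, did not. Pqlc2 was just inside the upper limit, with a log2 ratio of 1.001 that was 0.70 in the stage tables, and Exoc6 just outside it, with 0.995. Frem2 was just inside the lower limit (-1.003) and Fbxo10 just outside (-0.999).

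T itself stood at 48.3 FPKM in Tc/Tc against 36.7 in wild type, within the size rule; these values do not tell the mutant allele from the wild-type one. The Y-linked gene Eif2s3y had 116 FPKM in Tc/Tc against 81.0 in wild type, so both libraries held male RNA. FPKM summed to 737448 in Tc/Tc against 629048 in wild type. Scaling both to equal totals lowers ratios by up to about 0.23, and by less in low genes. A group median between 0 and 0.23 can thus be positive as deposited and negative with equal totals. Read depth is unknown. All 8 listed markers of visceral endoderm and yolk sac were higher as deposited, with a summed level of 2588 FPKM in Tc/Tc against 815 in wild type. Afp and Rbp4, with log2 ratios of 1.20 and 1.10, fell under the rule with equal totals. Epiblast markers summed to 135 FPKM in Tc/Tc against 21.0 in wild type (3 of 4 higher, Utf1 listed at 0 in wild type) and trophoblast markers to 46.0 FPKM in Tc/Tc against 28.2 in wild type (4 of 6 higher). Mesoderm markers summed to 49.6 FPKM in Tc/Tc against 41.5 in wild type, nearly all of it T itself; of the others, Tbx6 was lower at 1.07 FPKM in Tc/Tc against 4.48 in wild type, and Mesp1 was at 0.207 FPKM in Tc/Tc against 0.321 in wild type. Neurectoderm markers summed to 18.01 FPKM in Tc/Tc against 28.9 in wild type, with Pax6 listed at 0 in both libraries. The yolk sac markers moved the same way as the zinc, lysosome, lipid, transport and epithelial genes described next, and their part in those results was not tested. In RNA of whole embryos, more cells of a type and more RNA per cell cannot be told apart.

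Both measured metallothionein genes and part of the zinc transporters were higher. Metallothioneins are small cysteine-rich proteins that bind zinc and copper, and their genes are induced by zinc through the factor MTF1, which binds metal response elements in their promoters. Of 16 measured genes for metal handling, 6 were higher in Tc/Tc and 0 lower, with a median log2 ratio of 0.51 against 0.055 for all genes; 5 of the 6 were higher in the stage tables too. Mt2 stood at 162 FPKM in Tc/Tc against 20.1 in wild type, a log2 ratio of 2.94. Mt1, its neighbour on chromosome 8, stood at 100 FPKM in Tc/Tc against 22.9 in wild type, a log2 ratio of 2.08. Both ratios were also 2.94 and 2.08 in the stage tables. The importers Slc39a5 (18.97 FPKM in Tc/Tc, 6.21 in wild type) and Slc39a8 (62.6 FPKM in Tc/Tc against 24.2 in wild type) followed with log2 ratios of 1.47 and 1.33. Members within the rule ranged down to -0.64, among them the importers Slc39a10, with 31.5 FPKM in Tc/Tc against 37.2 in wild type, and Slc39a1, with 20.6 FPKM in Tc/Tc against 17.2 in wild type. The lowest ratio, that of the importer Slc39a6, was -0.64 here and -1.07 in the stage tables.

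Promoter sequence is shown for Mt2, Mt1 and the zinc exporter Slc30a1, a textbook target of MTF1 that was chosen for display after its value was seen (15.8 FPKM in Tc/Tc, 7.04 in wild type, log2 ratio 1.06, and 0.95 in the stage tables). The windows are RefSeq promoters of GRCm38.p6, from 250 bases before to 50 bases after the gene's start, at chr8:94172368-94172667 (Mt2, plus strand), chr8:94178839-94179138 (Mt1, plus strand) and chr1:191906531-191906830 (Slc30a1, plus strand). Capitals mark the core of the metal response element, TGCACNC or TGCGCNC, on either strand.
Mt2: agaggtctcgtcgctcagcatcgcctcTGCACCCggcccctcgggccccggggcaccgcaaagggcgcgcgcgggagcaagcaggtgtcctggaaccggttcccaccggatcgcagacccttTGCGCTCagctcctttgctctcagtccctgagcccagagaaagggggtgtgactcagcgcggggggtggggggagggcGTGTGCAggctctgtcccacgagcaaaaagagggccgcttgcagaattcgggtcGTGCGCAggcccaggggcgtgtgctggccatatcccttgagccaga
Mt1: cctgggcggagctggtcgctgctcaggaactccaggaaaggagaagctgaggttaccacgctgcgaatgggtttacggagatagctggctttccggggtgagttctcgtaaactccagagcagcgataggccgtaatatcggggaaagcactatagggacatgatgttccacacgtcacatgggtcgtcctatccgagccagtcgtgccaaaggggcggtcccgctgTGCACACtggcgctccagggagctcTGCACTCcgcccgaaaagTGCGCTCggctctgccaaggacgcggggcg
Slc30a1: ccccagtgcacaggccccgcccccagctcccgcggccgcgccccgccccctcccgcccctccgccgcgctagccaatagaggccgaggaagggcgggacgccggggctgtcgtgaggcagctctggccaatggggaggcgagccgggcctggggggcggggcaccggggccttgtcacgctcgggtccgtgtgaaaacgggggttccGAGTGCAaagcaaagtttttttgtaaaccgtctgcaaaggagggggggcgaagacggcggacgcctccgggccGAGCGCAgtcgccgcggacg
The core occurred 4 times in the Mt2 window, 3 times in that of Mt1 and 2 times in that of Slc30a1. Of 13 list members with a RefSeq window, 8 held at least 1 core (61.5%), against 25.6% of all 27025 windows; 3 or more cores were found in 1.32% of all windows. Members within the size rule also held it, among them Slc30a4 and Atp7a. A match describes these letters and is not evidence of binding.

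Lysosomal proteases were higher as a group. Cathepsins digest proteins that reach the lysosome by endocytosis, and the yolk sac endoderm relies on them to break down maternal protein. Of 8 measured cathepsin genes, 6 were higher, 5 of them in both estimates, and 0 lower, with a median log2 ratio of 1.26. Ctsh, an aminopeptidase, was at 305 FPKM in Tc/Tc against 74.1 in wild type, and Ctsc, dipeptidyl peptidase I, at 79.3 FPKM in Tc/Tc against 21.1 in wild type. Ctsb was at 70.5 FPKM in Tc/Tc against 25.1 in wild type. Ctsl, the cathepsin with the highest FPKM, was at 653 FPKM in Tc/Tc against 300 in wild type, a log2 ratio of 1.12. Ctss, a protease of antigen-presenting cells, was at 1.56 FPKM in Tc/Tc, and wild type was listed at 0. The aspartic protease Ctsd stayed within the rule at 90.0 FPKM in Tc/Tc against 67.2 in wild type, and the lowest ratio of the group, that of Ctsf, was 0.11.

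Other lysosomal genes were higher in smaller part. Of 38 lysosomal enzymes and membrane proteins 7 were higher, 3 of them also in the stage tables, and 0 lower; 31 ratios were above 0 and 7 below, and the median was 0.49. The highest was that of the acid nuclease Dnase2a, 2.36, which had no second value by the rule given above. Legumain, Lgmn, which cleaves after asparagine, stood at 269 FPKM in Tc/Tc against 85.3 in wild type. Manba, the lysosomal mannosidase, stood at 26.3 FPKM in Tc/Tc against 8.92 in wild type. The cholesterol exporter Npc1 was at 26.6 FPKM in Tc/Tc against 10.7 in wild type, a log2 ratio of 1.24 that was 0.75 in the stage tables. Of 18 subunits of the vacuolar proton pump, which acidifies endosomes and lysosomes, 17 had ratios above 0, with a median of 0.62. Only the catalytic subunit gene Atp6v1a (70.6 FPKM in Tc/Tc, 32.4 in wild type) and Atp6v1b2, which encodes a B subunit (74.5 FPKM in Tc/Tc against 34.9 in wild type) passed the rule, with 1.10 and 1.07, and neither did in the stage tables (0.64 and 0.65) or with equal totals. Autophagy genes had a median of 0.11 over 20 members, with Wipi1 lower at 3.002 FPKM in Tc/Tc against 7.73 in wild type; its ratio was -0.67 in the stage tables.

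Lysosomal and proton-pump promoters are known for the CLEAR element, which the factor TFEB binds. Windows are shown for Atp6v1a (chr16:44139210-44139509, minus strand) and for the lysosomal calcium channel Mcoln1 (chr8:3500269-3500568, plus strand), which was within the rule at 25.045 FPKM in Tc/Tc against 17.5 in wild type. They are RefSeq windows of GRCm38.p6 in the direction of the gene. Capitals mark the core, GTCACGTG or TCACGTGA on either strand, with overlapping matches joined.
Atp6v1a: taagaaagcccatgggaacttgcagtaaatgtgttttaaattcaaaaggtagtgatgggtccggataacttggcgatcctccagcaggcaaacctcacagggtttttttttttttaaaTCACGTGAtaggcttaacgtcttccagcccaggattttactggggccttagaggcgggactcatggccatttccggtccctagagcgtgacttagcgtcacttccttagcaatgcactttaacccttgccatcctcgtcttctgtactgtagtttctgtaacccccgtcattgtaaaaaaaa
Mcoln1: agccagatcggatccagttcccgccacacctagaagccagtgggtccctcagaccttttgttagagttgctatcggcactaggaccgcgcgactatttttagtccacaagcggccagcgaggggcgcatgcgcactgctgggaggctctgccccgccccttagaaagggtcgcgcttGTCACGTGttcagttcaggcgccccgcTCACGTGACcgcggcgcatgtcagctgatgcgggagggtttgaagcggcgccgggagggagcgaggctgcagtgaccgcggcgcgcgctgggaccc
The core was found in 4 of 13 proton-pump windows (30.8%), 5 of 29 lysosomal windows (17.2%) and 1 of 6 cathepsin windows (16.7%), against 2.51% of all windows. The cathepsin window with the core was that of Ctsd, which stayed within the rule, and the other cathepsin windows at hand held none. The size of a gene's ratio and the presence of the core were not tested against each other.

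Genes that take up and carry lipids had the highest list median of those with more than 10 members. Of 22 genes for fatty acid binding and lipoprotein assembly 14 were higher, 13 of them in both estimates, and 0 lower, with a median log2 ratio of 1.46; equal totals left 13 higher. Fabp3, a cytosolic fatty acid binding protein, stood at 16.1 FPKM in Tc/Tc against 1.20 in wild type, a log2 ratio of 2.95. The lipoprotein component Apoc1 stood at 47.3 FPKM in Tc/Tc against 10.9 in wild type, and Apoc2 at 321 FPKM in Tc/Tc against 85.1 in wild type. Fabp5, the member with the highest FPKM among the fatty acid binding proteins, ran against most of the list at 160 FPKM in Tc/Tc against 241 in wild type, a log2 ratio of -0.59. The group overlaps the secretory repertoire of the yolk sac endoderm, as does the list of coagulation, complement and plasma proteins. In that list 9 of 17 were higher, 8 of them in both estimates, and 0 lower, with all 17 ratios above 0 and a median of 1.07; with equal totals the count was 4. Coagulation factor F10 was at 15.1 FPKM in Tc/Tc against 4.18 in wild type, and complement factor Cfi at 3.79 FPKM in Tc/Tc against 0.807 in wild type.

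The surface machinery of absorptive epithelium was higher in part. Of 25 genes of endocytosis and recycling 4 were higher and 0 lower, with a median of 0.60. Amn, the amnionless partner of cubilin, was at 20.3 FPKM in Tc/Tc against 4.87 in wild type, and the multiligand receptor Lrp2 at 51.9 FPKM in Tc/Tc against 21.3 in wild type. The recycling effector Rab11fip5 was at 3.27 FPKM in Tc/Tc against 0.974 in wild type, a log2 ratio of 1.11. Other trafficking genes of the list were within the rule; of these, the adaptor subunit Ap2b1 was at 45.1 FPKM in Tc/Tc against 47.1 in wild type, Rab5a at 23.3 FPKM in Tc/Tc against 22.8 in wild type, and the broadly expressed receptor Lrp1 at 49.4 FPKM in Tc/Tc against 47.8 in wild type. Brush border genes were higher in 4 of 11, with a median of 0.70. Eps8l2, which binds actin bundles, stood at 17.3 FPKM in Tc/Tc against 3.84 in wild type. The peptidase Dpp4 stood at 49.9 FPKM in Tc/Tc against 14.4 in wild type. Of 17 nonmuscle myosin heavy chain genes, conventional and unconventional, 3 were higher and 0 lower, 2 of them in both estimates. Myo6, which moves towards the minus end of actin filaments, was at 98.7 FPKM in Tc/Tc against 28.6 in wild type, and Myo7a had a log2 ratio of 1.35 that was 0.35 in the stage tables.

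The solute carriers, the main family of membrane transporters, split unevenly. Of 191 measured solute carriers 25 were higher, 17 of them in both estimates, and 1 was lower; the share of higher genes in the whole transcriptome was 4.21%. Equal totals gave 18 higher and 2 lower. The sulfate transporter Slc13a4 was at 80.1 FPKM in Tc/Tc against 23.7 in wild type. The glucose transporter Slc2a2 was at 44.8 FPKM in Tc/Tc against 13.4 in wild type, and the mitochondrial aspartate and glutamate carrier Slc25a12 at 11.4 FPKM in Tc/Tc against 3.07 in wild type. The lower member was the sodium and calcium exchanger Slc8a1, which works in heart muscle, at 0.210 FPKM in Tc/Tc against 5.89 in wild type.

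Among 19 amino acid transporters 6 were higher and 0 lower (median 0.55), and 4 of the 6 held in the stage tables. Slc7a7, which exports cationic amino acids across the basal membrane of epithelia, was at 22.3 FPKM in Tc/Tc against 6.80 in wild type. The cystine and dibasic amino acid transporter Slc7a9, of the apical membrane, was at 7.24 FPKM in Tc/Tc against 2.15 in wild type. The sodium-coupled neutral transporters did not share this: Slc38a1 was at 20.9 FPKM in Tc/Tc against 29.4 in wild type, and Slc38a2 at 29.9 FPKM in Tc/Tc against 40.3 in wild type. All 3 measured aquaporins were higher in both estimates. Aqp3, which passes water and glycerol, was at 34.3 FPKM in Tc/Tc against 11.1 in wild type, Aqp11 at 7.10 FPKM in Tc/Tc against 1.87 in wild type, and Aqp8 at 7.56 FPKM in Tc/Tc against 2.24 in wild type. The beta subunits of the sodium pump were split: Atp1b1 was at 61.4 FPKM in Tc/Tc against 21.7 in wild type, and Atp1b3, within the rule, at 63.2 FPKM in Tc/Tc against 57.8 in wild type. Of 25 ABC transporters 3 were higher, led by the organic anion exporter Abcc2 with 16.1 FPKM in Tc/Tc against 3.61 in wild type. With equal totals 1 of the 3 remained. Folr1, the folate receptor, was among the highest ratios of all genes open to naming, at 51.8 FPKM in Tc/Tc against 10.6 in wild type.

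Energy metabolism differed by pathway. Mitochondrial fatty acid oxidation genes had ratios above 0 in 15 of 16 members, with a median of 0.62, and 3 passed the rule. Etfa, which passes electrons from the acyl-CoA dehydrogenases, was at 117 FPKM in Tc/Tc against 49.1 in wild type, and it alone passed in the stage tables. The medium-chain dehydrogenase Acadm was at 77.2 FPKM in Tc/Tc against 32.6 in wild type, with 0.93 in the stage tables. Citric acid cycle genes had a median of 0.39 over 18 members with none past the rule; in the stage tables the median was 0.17. Respiratory complex I, with 42 members measured and none past the rule, had a median of 0.21, and ATP synthase, with 17 members and none past it, a median of 0.36. The 13 protein-coding genes of the mitochondrial genome had ratios from 0.20 to 0.70, with a median of 0.35.

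Glycolysis showed no common shift. Its 21 genes had a median of -0.04, with Gapdh at 295 FPKM in Tc/Tc against 297 in wild type and Tpi1 at 806 FPKM in Tc/Tc against 826 in wild type. Its transporters were split. The glucose transporter Slc2a3 was higher at 930 FPKM in Tc/Tc against 423 in wild type, with 0.62 in the stage tables, and Slc2a1 was within the rule at 444 FPKM in Tc/Tc against 395 in wild type. The lactate transporter Slc16a1 was higher at 190 FPKM in Tc/Tc against 93.3 in wild type, and Slc16a3 was within the rule at 46.9 FPKM in Tc/Tc against 60.9 in wild type. Aldoc, the brain aldolase, was lower at 1.61 FPKM in Tc/Tc against 4.75 in wild type. Hypoxia targets outside glycolysis had a median of -0.08 over 16 genes and none passed the rule. Cholesterol synthesis was likewise flat, with a median of -0.07 over 22 genes. In the serine and one-carbon list Psph, the last step of serine synthesis, was at 63.1 FPKM in Tc/Tc against 23.6 in wild type, with 0.99 in the stage tables. The glycine cleavage enzyme Gldc was at 79.8 FPKM in Tc/Tc against 34.1 in wild type.

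Enzymes of arginine metabolism were split by step. Ass1 and Asl make arginine from citrulline, and Arg1 splits arginine into urea and ornithine. Ass1 stood at 40.7 FPKM in Tc/Tc against 8.16 in wild type, a log2 ratio of 2.19. Asl stood at 44.8 FPKM in Tc/Tc against 19.2 in wild type, a log2 ratio of 1.18 that was 0.88 in the stage tables. Arg1 stood at 2.63 FPKM in Tc/Tc against 43.8 in wild type, a log2 ratio of -3.62 in both estimates. The enzymes downstream that make polyamines from ornithine were within the rule. Among them, Sms was at 113 FPKM in Tc/Tc against 108 in wild type. Amd1 was at 41.9 FPKM in Tc/Tc against 36.6 in wild type. The regulators of ornithine decarboxylase were within the rule too. Azin1 was at 163 FPKM in Tc/Tc against 138 in wild type and Oaz1 at 50.3 FPKM in Tc/Tc against 60.6 in wild type.

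**Figure D2:**
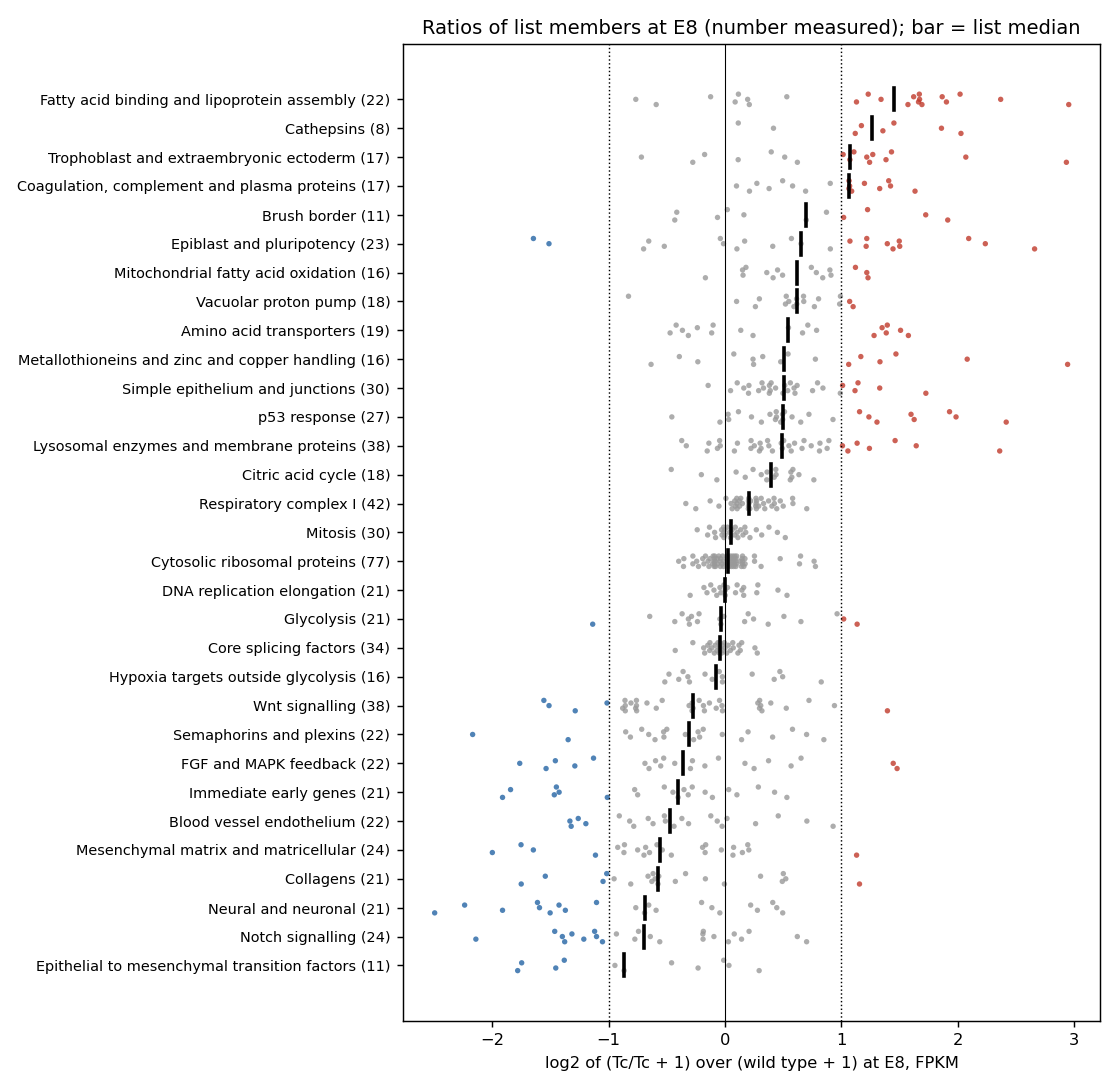
Each point is a measured gene of the list named at the left (number measured in brackets), placed by its log2 ratio; red and blue points are past the size rule at the dotted lines, and the black bar is the list median. Medians run from 1.46 for fatty acid binding and lipoprotein assembly to -0.87 for epithelial to mesenchymal transition factors, with ribosomal proteins, mitosis, DNA replication and splicing close to 0. Some genes are on more than 1 list.

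Epithelial junction genes and mesenchymal genes lay on opposite sides. Of 30 genes of simple epithelium and its junctions 29 had ratios above 0, with a median of 0.51; 5 passed the rule as higher and 0 as lower, 3 of them in both estimates. The desmosomal cadherin Dsg2 was at 57.6 FPKM in Tc/Tc against 25.5 in wild type. The epithelial sorting adaptor Ap1m2 was at 14.9 FPKM in Tc/Tc against 6.31 in wild type. Tjp3, a tight junction scaffold, had a log2 ratio of 1.33 in the E8 genotype table and -0.17 in the stage tables, whereas its relative Tjp1 (127 FPKM in Tc/Tc, 118 in wild type) was within the rule in both. Among the claudins, the sealing strands of tight junctions, Cldn7 was at 59.7 FPKM in Tc/Tc against 19.4 in wild type and the pore-forming Cldn2 at 20.8 FPKM in Tc/Tc against 6.80 in wild type. Cldn9 was lower at 0.655 FPKM in Tc/Tc against 2.38 in wild type. The keratin pair of simple epithelia stayed within the rule, Krt8 at 150 FPKM in Tc/Tc against 99.1 in wild type and Krt18 at 205 FPKM in Tc/Tc against 133 in wild type.

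Of 11 factors and markers of the epithelial to mesenchymal transition, 4 were lower and 0 higher, with a median of -0.87, the lowest of the lists plotted; all 4 were lower in both estimates. The cadherin switch is the textbook sign of this transition. N-cadherin, Cdh2, had a log2 ratio of -1.78, while E-cadherin, Cdh1, had 1.73, at 85.1 FPKM in Tc/Tc against 25.01 in wild type. The mesenchymal homeobox gene Prrx1 stood at 1.85 FPKM in Tc/Tc against 6.42 in wild type. Genes often listed beside them were within the rule: Vim stood at 255 FPKM in Tc/Tc against 208 in wild type, Tcf4 at 26.3 FPKM in Tc/Tc against 25.7 in wild type, and Fn1 at 129 FPKM in Tc/Tc against 152 in wild type.

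Interstitial matrix genes were lower in part, and the main basement membrane chains were within the rule. Of 24 mesenchymal matrix genes 4 were lower and 1 higher, with a median of -0.56. Fibrillin 2, Fbn2, a microfibril protein, was at 4.67 FPKM in Tc/Tc against 21.7 in wild type. Periostin, Postn, was at 1.09 FPKM in Tc/Tc against 5.53 in wild type, and the proteoglycan Bgn at 1.60 FPKM in Tc/Tc against 4.62 in wild type. Lum was listed at 0 in Tc/Tc but had 2.37 FPKM in wild type. The higher member, Sparc, was at 288 FPKM in Tc/Tc against 131 in wild type, with 0.69 in the stage tables. Of 21 collagens 4 were lower, 3 of them in both estimates, and 1 higher (median -0.58). Col3a1, a fibrillar collagen, was at 0.283 FPKM in Tc/Tc against 2.74 in wild type. The fibrillar collagen Col1a1 was within the rule at 22.1 FPKM in Tc/Tc against 15.4 in wild type. Col4a6, a basement membrane chain, was lower at 1.64 FPKM in Tc/Tc against 4.35 in wild type. The basement membrane chains Col4a1 (51.2 FPKM in Tc/Tc, 41.2 in wild type) and Col4a2 (53.9 FPKM in Tc/Tc against 37.8 in wild type) and the laminin chains Lamb1 (105 FPKM in Tc/Tc against 108 in wild type) and Lamc1 (111 FPKM in Tc/Tc against 106 in wild type) were within the rule. The hyaluronan synthase Has2 was lower at 6.37 FPKM in Tc/Tc against 14.9 in wild type, and smooth muscle actin, Acta2, at 15.3 FPKM in Tc/Tc against 52.3 in wild type.

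Pluripotency genes were higher in part. Of 23 epiblast and pluripotency genes 10 were higher and 2 lower, with a median of 0.65, and 9 of the 10 held in the stage tables. The 2 lower members were lower in both estimates. Foxd3 was listed at 0 in Tc/Tc but had 2.13 FPKM in wild type, and Tdgf1 was at 0.248 FPKM in Tc/Tc against 2.56 in wild type. Beside Pou5f1, which had 6.61 times the wild-type FPKM, the chromatin gene Dppa4 was at 1.83 FPKM in Tc/Tc, and wild type was listed at 0. Utf1, an epiblast transcription factor, was at 3.72 FPKM in Tc/Tc, and wild type was listed at 0. Lin28a, an RNA-binding protein of early embryos, was within the rule at 303 FPKM in Tc/Tc against 270 in wild type, and so was the anterior epiblast factor Otx2, at 26.6 FPKM in Tc/Tc against 19.8 in wild type. With a pseudocount of 5, 2 members were higher, and with a minimum of 5 FPKM 5 were. Genes better known from germ cells and testis gave 3 higher of 15, 2 of them in both estimates, among them Tex19.1 at 3.40 FPKM in Tc/Tc against 0.220 in wild type. Trophoblast and extraembryonic ectoderm genes were higher in 10 of 17, 6 of them in both estimates, with a median of 1.07. The homeobox genes Rhox6 (6.03 FPKM in Tc/Tc, 1.61 in wild type) and Rhox9 (2.19 FPKM in Tc/Tc against 0.222 in wild type) belong to an X-linked cluster of similar copies, between which short reads can be shared.

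Several genes that p53 activates were higher, and Trp53 itself was within the rule. Of 27 p53 response genes 8 were higher and 0 lower, with a median of 0.50 and 25 ratios above 0, and all 8 held in the stage tables. The tetraspanin Cd82 was at 22.5 FPKM in Tc/Tc against 3.40 in wild type. Trp53 stood at 96.3 FPKM in Tc/Tc against 82.1 in wild type, and its ratio changed sign between the estimates (0.23 and -0.32). The apoptosis effector Bax was at 40.8 FPKM in Tc/Tc against 29.97 in wild type, within the rule. Of 23 Bcl2 family and caspase genes Bid alone passed, at 20.3 FPKM in Tc/Tc against 7.79 in wild type, with 0.82 in the stage tables. The stress and iron lists that follow gave 1 or 2 calls each, beside a share of 4.21% higher over all genes. The unfolded protein and integrated stress response list had 1 of 21 higher, the asparagine synthetase Asns at 69.6 FPKM in Tc/Tc against 30.2 in wild type (0.48 in the stage tables). Of 16 chaperone genes 1 was higher, Hspb1 at 5.78 FPKM in Tc/Tc against 1.05 in wild type. In iron handling 2 of 21 were higher, Trf and the heme oxygenase Hmox1, at 30.9 FPKM in Tc/Tc against 12.6 in wild type.

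Notch pathway genes had the most lower members of the signalling lists. Notch receptors are cleaved when ligands on neighbouring cells bind, and the pathway times somite formation and sets boundaries in the nervous system and vessels. Of 24 measured members 9 were lower and 0 higher, all 9 in both estimates, with a median of -0.69. Among ligands, Dll1 was at 3.93 FPKM in Tc/Tc against 20.7 in wild type, and Jag1 at 5.28 FPKM in Tc/Tc against 16.3 in wild type. The glycosyltransferase Lfng, which tunes ligand response, was at 1.22 FPKM in Tc/Tc against 4.85 in wild type, and the oscillating target Hes7 at 0.271 FPKM in Tc/Tc against 2.30 in wild type. The widely expressed target Hes1 was within the rule at 18.02 FPKM in Tc/Tc against 27.0 in wild type, and the inhibitor Numb had a ratio of 0.62.

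FGF ligands were split. Fgf17, at 0.206 FPKM in Tc/Tc against 2.50 in wild type, and Fgf18, at 0.473 FPKM in Tc/Tc against 3.05 in wild type, were lower, as was Fgf8. Fgf3 was higher at 9.56 FPKM in Tc/Tc against 2.79 in wild type. The receptor Fgfr4 was at 11.3 FPKM in Tc/Tc against 3.53 in wild type, but its ratio of 1.45 was 0.45 in the stage tables. Fgfr1, the main mesodermal receptor, was within the rule at 158 FPKM in Tc/Tc against 122 in wild type. The target gene Etv4 was lower at 6.81 FPKM in Tc/Tc against 18.1 in wild type (-0.93 in the stage tables), while its relative Etv5 was at 39.3 FPKM in Tc/Tc against 32.9 in wild type. Over 22 measured members 2 were higher and 5 lower.

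Of 38 Wnt pathway genes 4 were lower and 1 higher, with a median of -0.28; with equal totals 9 were lower. The ligands Wnt2 (0.548 FPKM in Tc/Tc, 3.55 in wild type) and Wnt5b (2.99 FPKM in Tc/Tc against 10.4 in wild type) and the secreted antagonist Sfrp5 (2.92 FPKM in Tc/Tc against 8.57 in wild type) were lower. Wnt8a, a ligand of the streak, was higher, with a log2 ratio of 1.40. The feedback target Axin2 was at 22.9 FPKM in Tc/Tc against 25.2 in wild type. In the TGF-beta, Nodal and BMP list 5 of 40 were lower and 0 higher, among them the ligand Tgfb2, at 3.15 FPKM in Tc/Tc against 10.3 in wild type, and the BMP antagonist Grem1, at 0.195 FPKM in Tc/Tc against 2.33 in wild type. Among receptors and mediators within the rule, Bmpr1a was at 40.1 FPKM in Tc/Tc against 39.0 in wild type, Smad2 at 43.4 FPKM in Tc/Tc against 42.1 in wild type, and the BMP target Id2 at 44.8 FPKM in Tc/Tc against 43.5 in wild type. Of 13 hedgehog genes 3 were lower, Shh and the co-receptors Gas1 (2.59 FPKM in Tc/Tc, 8.51 in wild type) and Boc (1.88 FPKM in Tc/Tc against 5.01 in wild type). The receptor and target Ptch1 was within the rule at 53.8 FPKM in Tc/Tc against 71.0 in wild type.

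Retinoid genes of the embryo proper were lower, and the retinol carrier of the yolk sac was higher. Of 15 measured genes 4 were lower and 1 higher. Crabp1, a cytosolic retinoic acid binding protein, was at 24.5 FPKM in Tc/Tc against 115 in wild type, and its relative Crabp2 at 79.95 FPKM in Tc/Tc against 206 in wild type. Aldh1a2, the enzyme that makes retinoic acid in the trunk mesoderm, was at 25.7 FPKM in Tc/Tc against 58.0 in wild type. The degrading enzyme Cyp26c1 was at 0.348 FPKM in Tc/Tc against 4.45 in wild type. The higher gene was the retinol carrier Rbp4, at 232 FPKM in Tc/Tc against 107 in wild type, which is also on the yolk sac marker list; equal totals brought its ratio under the rule. The receptor Rarg was within the rule, with 23.4 FPKM in Tc/Tc against 22.6 in wild type.

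Several transcription factors with regional roles in mesoderm and ectoderm were lower. The orphan nuclear receptor Nr2f1 was at 0.0772 FPKM in Tc/Tc against 9.98 in wild type, a log2 ratio of -3.35, and its relative Nr2f2, of mesenchyme and veins, at 1.99 FPKM in Tc/Tc against 9.90 in wild type. In the same family the pluripotency receptors Esrrb (2.48 FPKM in Tc/Tc, 0.277 in wild type) and Nr0b1 (1.34 FPKM in Tc/Tc, listed at 0 in wild type) were higher; 2 of 26 nuclear receptors were higher and 2 lower. Forkhead factors were lower in 7 of 26 and higher in 3. Foxd1, a factor of stromal progenitors, was listed at 0 in Tc/Tc but had 4.13 FPKM in wild type, and Foxp2 was at 0.752 FPKM in Tc/Tc against 3.45 in wild type. Foxo4 was higher at 72.5 FPKM in Tc/Tc against 33.3 in wild type, Foxi3 at 5.51 FPKM in Tc/Tc against 1.52 in wild type, and the endoderm factor Foxa3 at 3.27 FPKM in Tc/Tc against 0.943 in wild type. Sox factors were lower in 3 of 12, with a median of -0.72. T-box factors were lower in 4 of 10 and higher in 2. Tbx3 was at 22.6 FPKM in Tc/Tc against 10.6 in wild type (0.81 in the stage tables) and Tbx1, a pharyngeal gene, at 2.24 FPKM in Tc/Tc against 6.23 in wild type. Of 271 Zfp genes 4 were higher and 3 lower, with Zfp42, a stem cell marker, at 2.16 FPKM in Tc/Tc against 0.118 in wild type, and the repressor Zfp503 at 2.13 FPKM in Tc/Tc against 13.4 in wild type.

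Neural, vascular and guidance genes were lower or within the rule. Of 21 neural and neuronal genes 9 were lower and 0 higher, with a median of -0.69, and 4 were lower under a minimum of 5 FPKM. The forebrain gene Otx1 was at 0.435 FPKM in Tc/Tc against 3.38 in wild type, while Otx2 was within the rule. The guidance cue Sema3a was at 2.57 FPKM in Tc/Tc against 15.1 in wild type, and Sema3c at 0.496 FPKM in Tc/Tc against 2.81 in wild type; the other 20 of 22 semaphorins and plexins were within the rule. Pleiotrophin, Ptn, a heparin-binding growth factor, was at 26.8 FPKM in Tc/Tc against 158 in wild type, the largest FPKM difference among the 25 lowest ratios. Of 22 endothelial genes 4 were lower and 0 higher, among them Cd34 at 1.504 FPKM in Tc/Tc against 5.003 in wild type and Icam2 at 0.445 FPKM in Tc/Tc against 2.64 in wild type. The VEGF receptor Kdr was within the rule at 15.3 FPKM in Tc/Tc against 22.4 in wild type, and Angpt1, the ligand of the Tie2 receptor, was lower at 0.442 FPKM in Tc/Tc against 2.78 in wild type. The binding proteins Igfbp5 (16.9 FPKM in Tc/Tc, 51.2 in wild type) and Igfbp3 (1.59 FPKM in Tc/Tc against 5.67 in wild type) were lower, while Igf2 was at 309 FPKM in Tc/Tc against 346 in wild type.

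Erythroid genes did not move together. The regulators Gata1, at 7.29 FPKM in Tc/Tc against 0.782 in wild type, and Gfi1b, at 3.99 FPKM in Tc/Tc against 0.238 in wild type, were higher, with log2 ratios of 2.22 and 2.01. The embryonic alpha-like globin Hba-x was lower, with a log2 ratio of -2.93, but the embryonic beta-like globin Hbb-bh1 was within the rule at 76.5 FPKM in Tc/Tc against 53.5 in wild type. The near-identical adult genes Hba-a1 (7.64 FPKM in Tc/Tc, 19.4 in wild type) and Hba-a2 (4.35 FPKM in Tc/Tc against 9.84 in wild type) can share reads and are also transcribed in maternal blood cells, and Hbb-b1 was at 0.569 FPKM in Tc/Tc, and wild type was listed at 0. Over 13 erythroid genes 2 were higher, 3 lower and 8 within the rule, with a median of 0.52. The lower genes were Hba-x, Hba-a1 and Hba-a2. Of 6 measured genes of decidua, placental hormones and maternal leukocytes, 2 were higher and 1 lower, each in both estimates. The lower gene was Hba-a1, and the higher genes were Prl8a2 and Fcgr3. Prl8a2, a decidua marker, reached 3.21 FPKM in the Tc/Tc library, and its wild-type value was 0 (log2 ratio 2.07). Fcgr3 had 4.29 FPKM in Tc/Tc against 0.882 in wild type. The decidua marker Dcn went the other way within the rule (0.175 FPKM in Tc/Tc, 1.14 in wild type). Whether either library held maternal tissue was not tested.

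Imprinted genes, which are expressed from 1 parental copy, were lower in 4 of 22 and higher in 1, with all 5 calls held in the stage tables. Ndn, a gene of postmitotic neurons, was at 14.2 FPKM in Tc/Tc against 34.7 in wild type. Mest, a mesoderm gene, was at 104 FPKM in Tc/Tc against 226 in wild type, and its genomic neighbour Copg2 at 42.0 FPKM in Tc/Tc against 95.4 in wild type. Nnat was at 44.8 FPKM in Tc/Tc against 94.4 in wild type. Ascl2, which the trophoblast needs, was higher at 2.02 FPKM in Tc/Tc against 0.252 in wild type. Igf2 and Snrpn (62.0 FPKM in Tc/Tc, 56.0 in wild type) were within the rule. Immediate early genes, which respond to signals and to handling within minutes, were lower in 6 of 21 and higher in 0, with a median of -0.40; Jun was at 12.8 FPKM in Tc/Tc against 36.7 in wild type, while Myc was at 19.4 FPKM in Tc/Tc against 21.0 in wild type.

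Large parts of the shared cell machinery stayed within the rule. None of 77 cytosolic ribosomal protein genes, 30 mitosis genes, 21 replication elongation genes, 29 DNA repair genes, 34 core splicing factors, 19 hnRNP genes, 36 proteasome subunits, 55 translation initiation factors or 20 intraflagellar transport genes passed it. Their medians lay between -0.09 and 0.14. Top2a, the mitotic topoisomerase, was at 239 FPKM in Tc/Tc against 240 in wild type, the replication clamp Pcna at 311 FPKM in Tc/Tc against 320 in wild type, and the ribosomal protein Rpl4 at 2056 FPKM in Tc/Tc against 1953 in wild type. Of 75 mitochondrial ribosomal proteins 1 passed, Mrpl33, at 15.1 FPKM in Tc/Tc against 0.266 in wild type with a log2 ratio of 3.67. The identifier of Mrpl33 had no match in the GENCODE M21 annotation, and its log2 ratio at E10 was 0.10. Mrpl41 was at 28.1 FPKM in both libraries. Chromatin regulators gave 1 call over 12 DNA methylation, 23 Polycomb and trithorax and 21 remodelling genes: Cbx7, a Polycomb reader, was higher at 20.03 FPKM in Tc/Tc against 6.67 in wild type. Of 61 lists and 56 symbol families, 31 had no member past the rule.

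The 25 highest and 25 lowest ratios were taken from 193 higher and 142 lower genes that reached 5 FPKM, held in both estimates and were outside the heart, Hox and yolk sac lists. Several of these 50 are not described above. The X-linked ATPase gene Morc4 was at 158 FPKM in Tc/Tc against 35.0 in wild type. Gelsolin, Gsn, which severs actin filaments, was at 16.3 FPKM in Tc/Tc against 2.74 in wild type, and the lymphoid factor Ikzf1 at 5.66 FPKM in Tc/Tc against 0.518 in wild type. Lrrc19 was at 12.2 FPKM in Tc/Tc against 2.28 in wild type. At the bottom, Sh3bgr, known from heart, was at 1.76 FPKM in Tc/Tc against 19.8 in wild type, the matricellular Thbs4 at 0.927 FPKM in Tc/Tc against 11.3 in wild type, and nebulette, Nebl, an actin-binding protein of heart muscle, at 4.60 FPKM in Tc/Tc against 32.1 in wild type. All 3 are outside the heart list. The deubiquitinase Usp20 was at 1.79 FPKM in Tc/Tc against 13.4 in wild type. The pseudogenes Rps2-ps13 (4.56 FPKM in Tc/Tc, 72.2 in wild type) and Hmgb1-ps5 resemble expressed parent genes, so their assignment is uncertain.

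**Figure D3:**
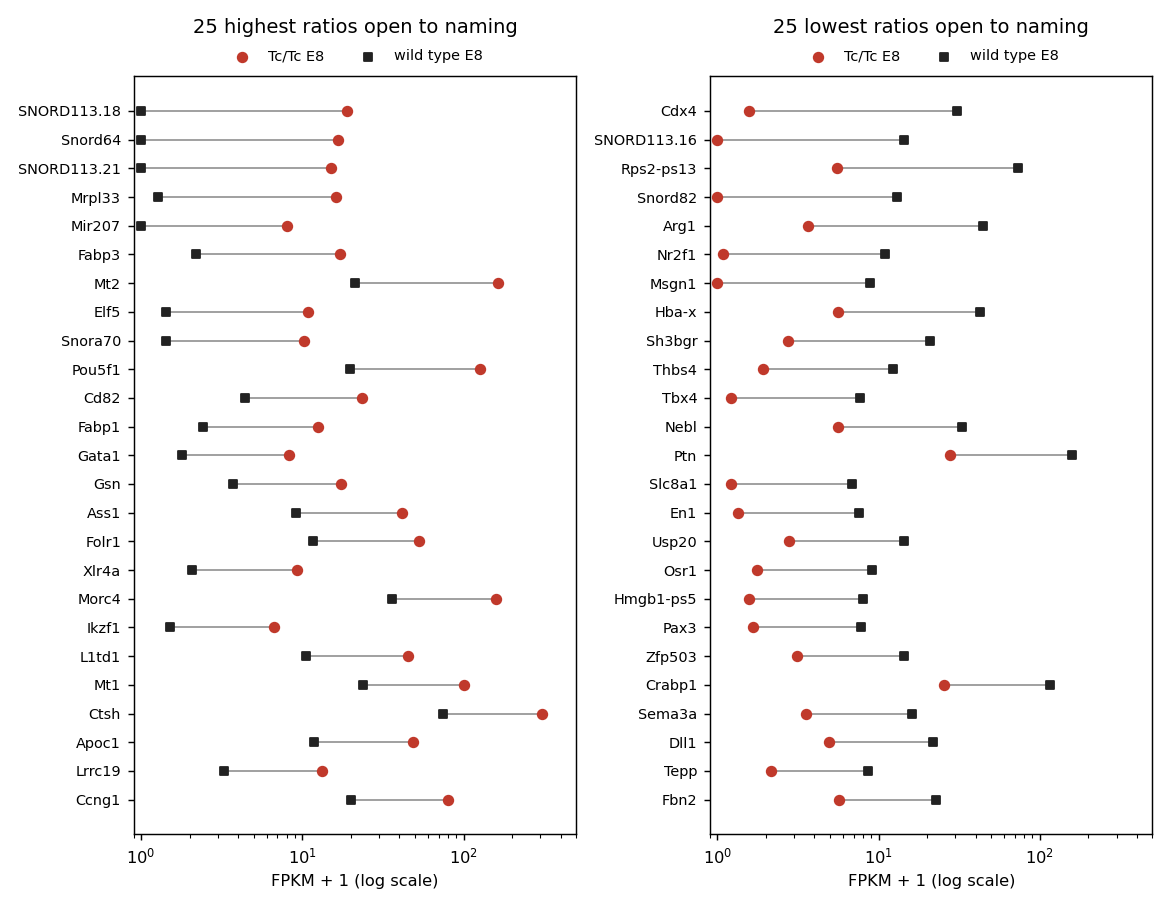
For each of the 25 highest (left) and 25 lowest (right) log2 ratios open to naming, the red circle is Tc/Tc FPKM + 1 and the black square wild-type FPKM + 1, on a log axis, joined by a line. Mt2, Pou5f1, Morc4, Mt1 and Ctsh differ at over 90 FPKM in Tc/Tc, whereas Cdx4, Arg1, Rps2-ps13, Ptn and Crabp1 differ from wild-type levels of over 25 FPKM; symbols at 1 are genes listed at 0.

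Higher genes were more frequent on the X chromosome than on any autosome. Of 588 measured X-linked genes 47 were higher (7.99%) and 8 lower (1.36%), against 492 (4.01%) and 370 (3.01%) of 12283 autosomal genes. The share of higher genes on single autosomes ran from 2.78% on chromosome 13 to 5.17% on chromosome 3. Among protein-coding genes, 35 of 412 were higher on the X (8.50%) and 404 of 10701 on autosomes (3.78%). The median ratio of X-linked genes was 0.05, close to the 0.06 of autosomal genes. Both libraries were male, with Xist at 0.576 FPKM in Tc/Tc against 0.193 in wild type.

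The higher X-linked genes included clusters of similar copies that are active in trophoblast, germ line or stem cells. All 12 measured Xlr genes and pseudogenes had ratios above 0, from 0.64 to 2.17, and 5 passed the rule. Xlr4c, 1 of the 5, had 1.13 here and 0.89 in the stage tables. Xlr4a, the highest of them, was at 8.30 FPKM in Tc/Tc against 1.06 in wild type. Xlr3a was at 11.2 FPKM in Tc/Tc against 3.77 in wild type. Reads cannot be placed with certainty among these copies, so they are not 12 separate observations. Outside the clusters, the following genes were picked from the X after their values were seen. Nxf7, a relative of the mRNA exporter, was at 73.5 FPKM in Tc/Tc against 18.9 in wild type, and the tumour antigen gene Trap1a at 61.4 FPKM in Tc/Tc against 21.3 in wild type. The kinase Pim2 was at 26.7 FPKM in Tc/Tc against 7.13 in wild type, and Eras, a Ras gene of stem cells, at 6.38 FPKM in Tc/Tc against 1.44 in wild type. Among the lower genes, Irs4, an insulin receptor substrate, was at 1.63 FPKM in Tc/Tc against 7.44 in wild type.

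**Figure D4:**
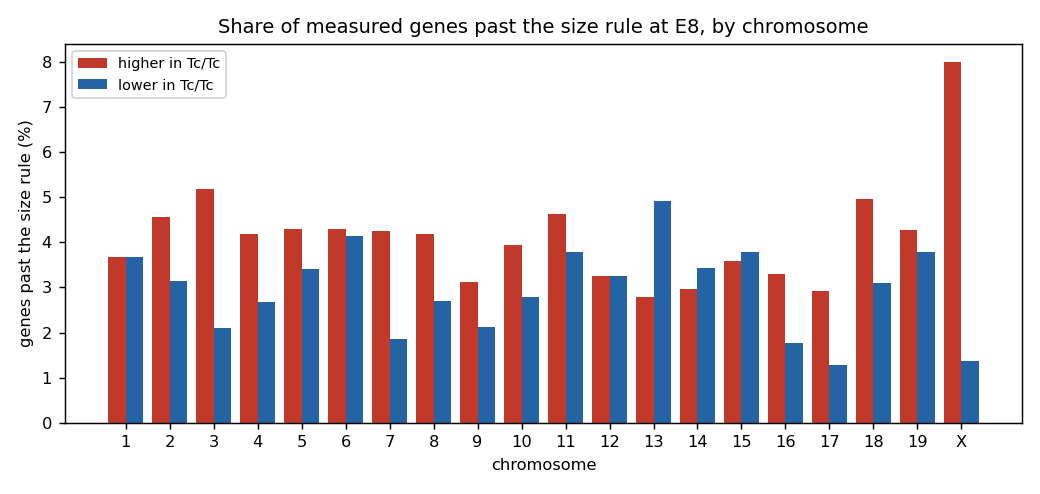
Bars give the percent of measured genes past the size rule on each chromosome, red for genes higher in Tc/Tc and blue for genes lower, among genes matched to a GENCODE M21 entry. Of the autosomes and the X, the X has the tallest red bar, at 7.99%, and one of the shortest blue bars, at 1.36%; chromosome 3 has the highest autosomal red bar, at 5.17%.

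Calls also depended on the kind of transcript. Of 94 measured snoRNA genes 34 were higher and 15 lower, but only 10 of the 34 were higher in the stage tables, against 14 of the 15. Of 33 miRNA genes 15 were higher, 3 of them in both estimates. SNORD113.15 was at 944 FPKM in Tc/Tc against 0.271 in wild type in the E8 genotype table, and its ratio was 0.39 in the stage tables. Mir675 was at 39.7 FPKM in Tc/Tc and near 0 in wild type, with a ratio of 0.00 in the stage tables. Given how far these estimates lie apart, small-RNA genes are not read further. Among protein-coding genes, split by length into 4 equal sets, 6.14% of the shortest were higher, 4.17% of the next, 3.06% of the third and 2.41% of the longest, while the share of lower genes ran between 2.16% and 3.20% without that order. By level, lower genes made up 4.80% of genes at 1 to 3 FPKM and 0 of 308 genes at 300 FPKM and over, of which 16 were higher.

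**Figure D5:**
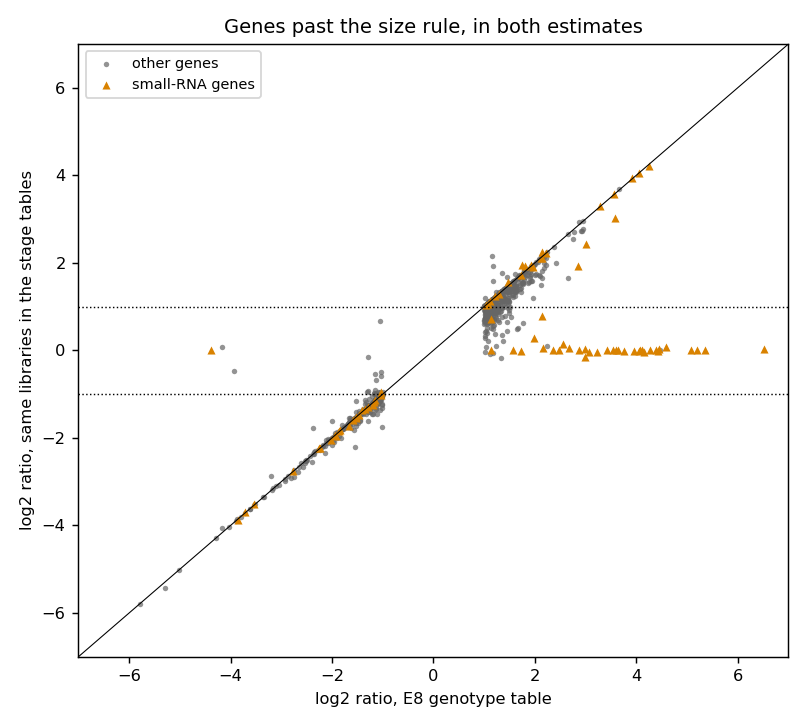
Each point is a gene past the size rule that had a second value. The x axis is its log2 ratio in the E8 genotype table and the y axis the ratio of the same libraries in the stage tables. Orange triangles are small-RNA genes and grey points other genes. Dotted lines mark the size rule and the diagonal equal ratios. Lower genes follow the diagonal (95.2% pass again), while higher genes scatter below it (68.5% pass again) and many small-RNA genes drop to 0; SNORD113.15 lies beyond the right edge of the axis.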

How the data were processed

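Directional RNA libraries of whole Tc/Tc and wild-type embryos, 1 for each genotype and stage, were compared at E8. The authors deposited FPKM values, 2 libraries to a table, per the file headers; the submitters' processing notes name Cuffdiff, Bowtie2 and, as build, mm9. Versions, annotation and read depth are not given. Of the per-sample columns, 2 were not used, among them the column of the Tc/Tc stage table whose heading and table title disagree. The FPKM values were read with Python 3.11.15, pandas 2.3.3 and numpy 2.4.6, and figures drawn with matplotlib 3.10.9.

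Genes at 0 in both E8 columns were dropped, 1 FPKM in either library was required, a pseudocount of 1 FPKM was added and the log2 ratio of Tc/Tc over wild type was taken; the size rule was an absolute ratio of 1, a fold of 2. The calculation was checked on simulated data. The 2 deposited estimates of each E8 library gave the re-estimation spread. Symbols turned into dates, 25 of them, were restored by Ensembl identifier, and 143 symbols on more than 1 gene were not named. Chromosome, biotype and length came from a GENCODE M21 table that held 12907 of the 13547 genes (95.3%); its build is not mm9, so the only coordinates printed are those of RefSeq promoter windows on GRCm38.p6.

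Genes were grouped by 61 hand-written lists and 56 symbol families, which held 2566 measured genes. The members, lists and rules were chosen with earlier results of these data known. Named were the 25 highest and 25 lowest ratios at 5 FPKM or more that held in both estimates and were outside the heart, Hox and yolk sac lists; in each list up to 4 calls per direction, or the members of highest FPKM where none passed; the genes nearest each limit; members of smallest ratio at 20 FPKM or more; and T. Alternatives were other pseudocounts, minimum levels, scalings and the stage-table estimates.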

Additional observations from a re-analysis of the deposited data

Results flagged for a closer look

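The genotype ratio at E8 was set beside that at E10, from other libraries of the same study, for the 50 genes of highest and lowest ratio and T. In 7 genes the ratio passed the size rule in opposite directions at the 2 stages. With 1 library per group, the difference between the stages was not tested for any of them.

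The tail bud homeobox gene Cdx4 had a log2 ratio of -4.29 at E8 and 2.82 at E10, where it stood at 27.1 FPKM in Tc/Tc against 2.99 in wild type. The presomitic mesoderm factor Msgn1 had -3.15 at E8 and 1.39 at E10 (5.57 FPKM in Tc/Tc, 1.501 in wild type). The midbrain homeobox gene En1 had -2.50 at E8 and 1.02 at E10 (6.33 FPKM in Tc/Tc against 2.62 in wild type). Osr1, of intermediate mesoderm, had -2.36 at E8 and 1.15 at E10 (9.51 FPKM in Tc/Tc against 3.74 in wild type). Thbs4 had -2.67 at E8 and 1.97 at E10 (14.1 FPKM in Tc/Tc, 2.85 in wild type), and Nebl -2.56 at E8 and 1.29 at E10 (44.5 FPKM in Tc/Tc against 17.6 in wild type). In each of these 6 the wild-type level was lower at E10 than at E8 and the Tc/Tc level higher; the genotypes were quantified in a separate table at each stage. The small nucleolar RNA gene SNORD113.18 had 4.25 at E8, where wild type was listed at 0, and -3.16 at E10 (21.5 FPKM in Tc/Tc, 200 in wild type); it is 1 of a set of similar short copies.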

How the results depend on the processing

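The counts of genes past the size rule moved most with the pseudocount: 858 were higher and 702 lower with 0.1, and 205 higher and 102 lower with 5. A minimum of 5 FPKM left 204 lower and 405 higher genes, and no minimum left both counts as reported. Scaling to equal totals gave 385 higher and 572 lower genes, turning the split round, and a median over all genes of -0.15; centring on the median gave 508 higher and 447 lower, and the stage-table estimates 391 higher and 435 lower. Of 117 list and family medians, 30 changed sign with equal totals, none of them above 0.23 in size, and 12 did with the stage-table estimates, none above 0.09. The 50 genes of extreme ratio and T kept their direction under every alternative, and of these only Ikzf1 left the rule, with 0.95 at a pseudocount of 5. The 50 had been chosen at 5 FPKM or more and for holding in the stage tables. The minimum-level and stage-table alternatives therefore could not have removed them, and their ratios are too far from the rule for scaling to matter. No paired analysis was possible because each group had 1 library, and leaving out a replicate was not run for the same reason. Depth is unknown, so the precision of low values cannot be given, and the spread between embryos cannot be had from these files.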

Other observations

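The genes called at E8 were followed in the E10 libraries, which share no library with the E8 pair. Of 451 genes higher at E8 and measured at both stages, 191 were higher at E10 and 20 lower, with a median E10 log2 ratio of 0.84 against 0.19 for all 12869 genes measured at both. Of 368 genes lower at E8, 44 were lower at E10 and 36 higher, with a median of 0.12. These counts are to be read beside all 12869 genes, of which 633 were higher at E10 and 222 lower. Ratios above 0 at E10 were found for 81.2% of the genes higher at E8, 56.8% of those lower at E8 and 70.5% of all genes.

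The genes that follow were chosen after their values were seen. The cathepsin Ctsh had a log2 ratio of 4.205 at E10, with 39.6 FPKM in Tc/Tc against 1.20 in wild type, and the folate receptor Folr1 had 2.50, with 9.41 FPKM in Tc/Tc against 0.845 in wild type. Mt1 had 1.08 at E10 and Mt2 0.87. Fabp3 was no longer apart, at 2.77 FPKM in Tc/Tc against 2.63 in wild type. Among genes lower at E8, Ptn was at 141 FPKM in Tc/Tc against 136 in wild type at E10, Sema3a at 19.6 FPKM in Tc/Tc against 22.9 in wild type, Fbn2 at 23.2 FPKM in Tc/Tc against 22.9 in wild type and Arg1 at 41.5 FPKM in Tc/Tc against 23.6 in wild type. Nr2f1 was lower at both stages, with 46.0 FPKM in Tc/Tc against 105 in wild type at E10.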
